A study of Mus musculus with 16 samples.

Results

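The genes described here were higher after 2 h and 4 h of ERK induction than before it, and were still higher after a MEK inhibitor had been added for 2 h. They were chosen by their own counts. Genes with over 1% of all counts or with under 160 counts in total were set aside, and CPM is the count scaled to 1 M of a library's remaining counts. L is the mean of log2(CPM + 1) over the 4 libraries of a group. A member had L at least 0.5 above 0h at 2h and at 4h, at least 0.6 above 0h in the group with inhibitor (rev), and less than 0.7 below 4h at rev. Keratin, histone, Cav, Dusp, Etv, Igf2, H19 and Lefty symbols and Lad1 and Esr1 were left out by name, which removed 3 genes (Lad1, Esr1 and Cavin1) of 121. This left 118 members among 11924 kept genes, from 52636 gene IDs. All differences between groups below are therefore descriptions of how the members were selected and carry no test. The choice averaged the clones, so the difference between clones is another contrast and was tested gene by gene. A large change in 1 clone can however carry the average past a threshold, so how many members differed between clones, and in which direction, is partly set by the choice and is given as a description.

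The cells were mouse CRAFR26 cells of the type labelled RSC, a pluripotent cell type kept in N2B27 medium with 2 µM of the Wnt secretion inhibitor IWP2, 1 µM of the MEK inhibitor PD03 and 1000 U/ml of LIF. They carry a c-RAF kinase construct that 4-hydroxytamoxifen (4OHT) switches on, and RAF activates MEK and then ERK. In all 4 groups PD03 had been replaced for 48 h by 250 nM of the FGF receptor inhibitor PD17. The 0h group received nothing further, 2h and 4h received 250 nM 4OHT for 2 h and 4 h, and rev received 4OHT for 4 h and then a MEK inhibitor for 2 h, at a dose not given in the labels. Each group held 4 libraries, 2 from clone 4 and 2 from clone 8, and each of these lines is 1 clone. The labels do not say whether the libraries of a clone and group came from separate cultures, so p-values measure the spread between these libraries, which may be technical. A group induced for 6 h without inhibitor was not analysed here, so rev differs from 4h in 2 h more of culture as well as in the inhibitor.

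ERK, once phosphorylated by MEK, enters the nucleus and switches on immediate-early genes, many of which encode transcription factors such as FOS, JUN and EGR1. Their mRNAs are mostly short-lived, and ERK also induces its own inhibitors, the Sprouty, Spred and Dusp genes. When MEK is blocked, ERK loses its phosphorylation and such short-lived mRNAs are lost quickly, while mRNAs in general differ widely in stability. In pluripotent cells ERK signalling lowers naive genes such as Nanog and prepares cells for differentiation.

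The libraries held 4.31 to 10.4 M counts each, with a median of 8.03 M, of which 1.29 to 5.41 M were in kept genes. The smallest kept total was that of rev library 1 of clone 8, where features over 1% of counts held 78.9%. In a library, 3 counts corresponded to between 0.555 and 2.33 CPM; this limit covers counting error only. All 10 markers of pluripotent cells were kept, at a summed 3633 to 5751 CPM in any library, while none of 9 fibroblast markers were kept, and 5 of these had at most 3 counts in every library. The summed level of 9 primitive endoderm markers was 133 to 219.8 CPM at 0h and 158.7 to 367.9 CPM at rev, with Foxa2 at no more than 3 counts in any library. Of 12 trophoblast markers 8 were kept, at a summed 156.7 to 246.1 CPM at 0h and 142.9 to 312.2 CPM at rev, with a median change of L at rev of 0.64 (6 above 0h and 2 below); this list includes the member Eomes. The part of these cell types in the members' values was not tested.

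The members were mostly genes of low level. Their median total was 543.5 counts, against 1578.5 for all kept genes. Their median level at 0h was 5.04 CPM, against 33.8 CPM over all kept genes. At 0h 33.1% of members lay under 3 CPM, against 1.84% of kept genes. A gene that low at 0h passed the filter on total counts mainly if it was higher in other groups, as the thresholds asked of members. The contrast at 0h is therefore partly set by the choice and is not read as a trait of the members. A total of 53 members had under 500 counts over the 16 libraries and 9 had under 200, so that many single values rest on few reads. The median of L was 0.89 above 0h at 2h, 0.88 at 4h and 0.98 at rev. Over all kept genes these medians were -0.072, -0.067 and -0.066. The median difference was thus of about the same size in the 3 groups, and the median of rev minus 4h was 0.048. In bulk RNA, a level shared by fewer cells and less RNA per cell cannot be told apart. Group means were highest at rev for 50 members, at 4h for 38 and at 2h for 30. Members made up 41.5% of the 284 genes that met both the 2h and the 4h threshold, and 257 genes met the mirrored thresholds, lowered and still lowered at rev.

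**Figure D1:**
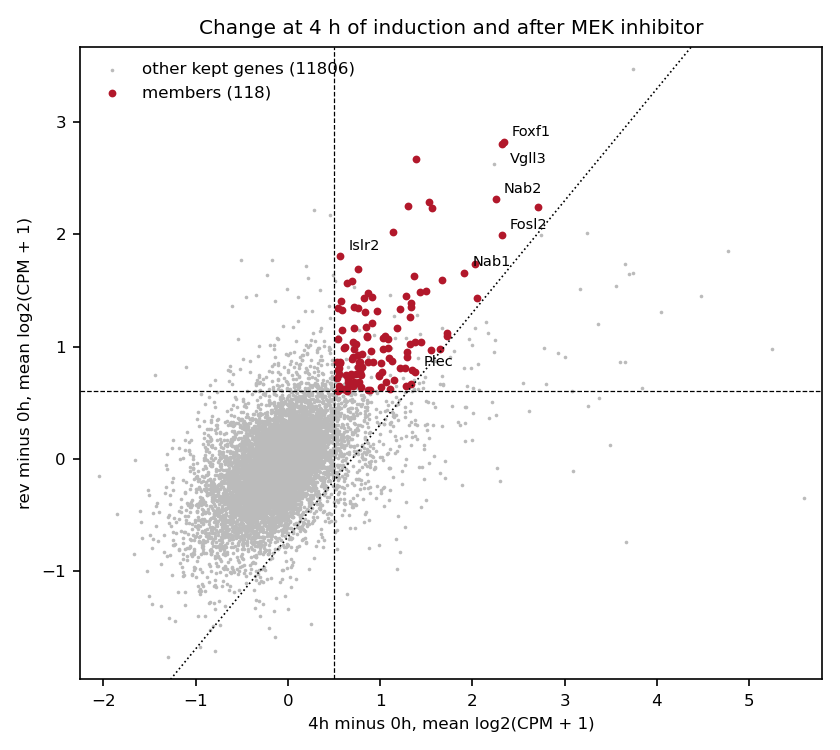
Change of L at 4h (horizontal) and at rev (vertical) against 0h, both in mean log2(CPM + 1), for each kept gene, with the 118 members in red. Dashed lines mark the thresholds of 0.5 and 0.6 and the dotted line marks rev lying 0.7 below 4h; the members fill the area inside all 3 lines, where grey points failed the 2h threshold or were left out by symbol.

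In edgeR's quasi-likelihood test with the clone as a covariate, 85 of the 118 members were called higher at 2h (9.49% of all 12742 genes tested were), 75 at 4h (7.35%) and 79 at rev (5.51%), at an adjusted p under 0.05. None was called lower at rev against 0h, where 4.94% of all genes were. These shares follow from the choice. Of the 118, 5 were called higher at rev than at 4h (4.5% of all genes), namely Islr2, Il34, Peg10, Neto2 and Gclc, and 2 lower (5.1%), Reep3 and Tns3. Without 4h library 1 of clone 8, 13 were called in either direction, and without rev library 2 of clone 4, 3 were. All 4 rev libraries lay above all 4 libraries at 0h for 61 members, as for 4.31% of kept genes. The rev and 4h libraries did not overlap for 4 members (B3gnt3, Il34, Neto2 and Tns3), nor for 9.02% of kept genes. The rule used both contrasts, so nothing is read from these counts. The call depended on the clone covariate: without it 32, 28 and 22 members were called at 2h, 4h and rev. Calls over all 12742 genes fell as well: at 2h 757 were called without it, against 1209 higher and 953 lower with it. Without 0h library 1 of clone 4, 45 members were called at rev and 56 at 2h. In that run 1272 of all 13047 genes tested were called at 2h.

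The 0h libraries enter 3 of the 4 thresholds. Leaving out 0h library 1 of clone 8 gave 174 members, of which 109 were among the 118. A library total that included the features over 1% gave 61. The nearest genes on either side of each threshold show how fine the line was. At 2h it passed between Plec at 0.51 and Trpv3 at 0.50, at 4h between Gm43682 at 0.53 and Gm6863 at 0.48, at rev between Ripk1 at 0.60 and Pigl at 0.59, and for rev minus 4h between Stambpl1 at -0.68 and Pou4f2 at -0.75.

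**Figure D2:**
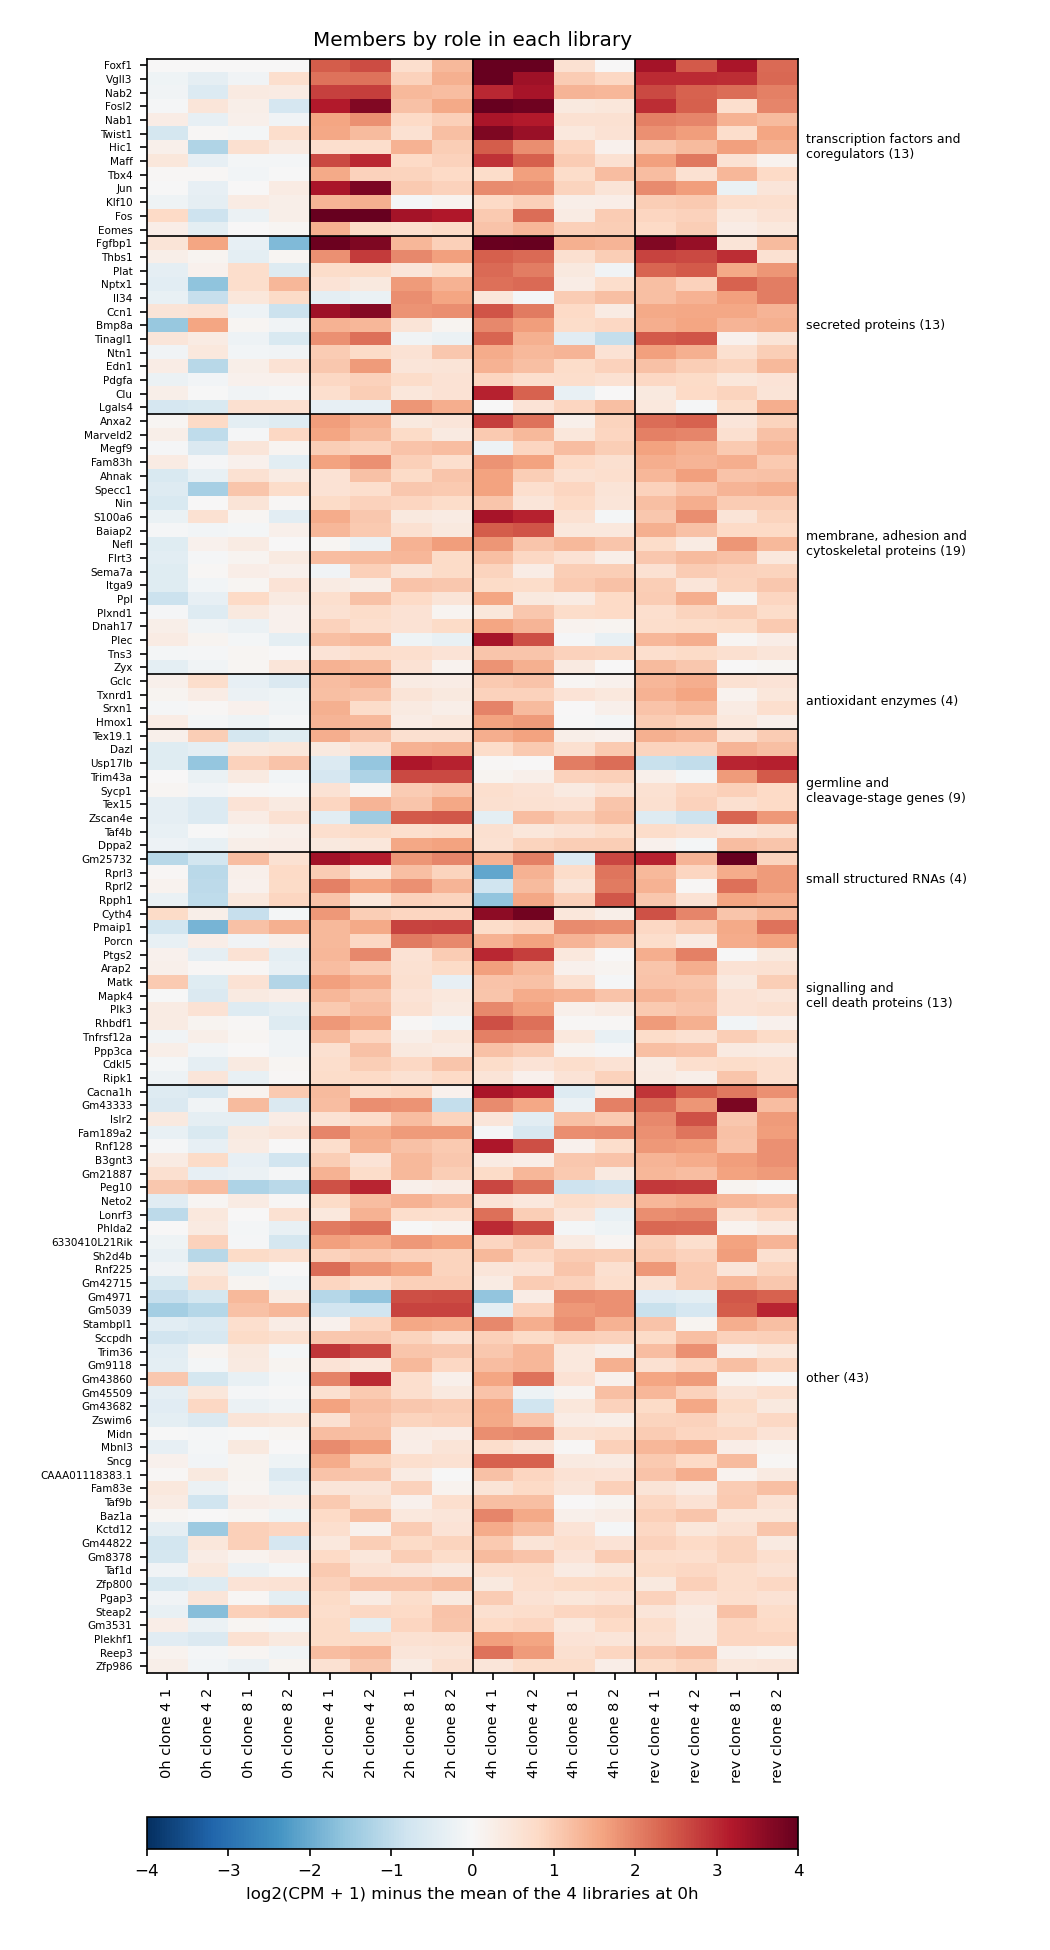
Each row is 1 of the 118 members, grouped by role with the number in brackets, and each column is 1 of the 16 libraries. Colour is log2(CPM + 1) minus the mean of the 4 libraries at 0h, and is capped at 4; clone 4 libraries are darker than clone 8 libraries at 4h in most role groups, and the germline group holds rows raised in clone 8 alone.

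The stretch just before the start of transcription can be read for 71 of the 118 members, from RefSeq on the build GRCm38.p6, with 95 windows of 250 bases before and 50 after a start. The following 5 were printed because they hold letters of motifs bound by AP-1 (TGAGTCA), by TEAD factors (GGAATG), by NRF2 and MAF pairs (TGACNNNGC), or the TATA box (TATAAA), in 1 member each of 5 of the groups described below. All motifs were searched on both strands, and capitals mark every match, including ones on the other strand. Bases inside an annotated exon were left off.
Srxn1, chr2:152105394-152105515, plus strand: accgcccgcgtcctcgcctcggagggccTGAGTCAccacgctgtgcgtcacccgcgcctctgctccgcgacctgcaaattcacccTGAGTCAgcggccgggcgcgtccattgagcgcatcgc
Ccn1, chr3:145649986-145650115, minus strand: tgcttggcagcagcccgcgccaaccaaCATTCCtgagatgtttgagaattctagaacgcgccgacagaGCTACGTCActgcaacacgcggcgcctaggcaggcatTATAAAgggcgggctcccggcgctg
Anxa2, chr9:69453553-69453619, plus strand: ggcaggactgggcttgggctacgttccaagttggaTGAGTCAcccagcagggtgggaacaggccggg
Tex19.1, chr11:121146013-121146142, plus strand: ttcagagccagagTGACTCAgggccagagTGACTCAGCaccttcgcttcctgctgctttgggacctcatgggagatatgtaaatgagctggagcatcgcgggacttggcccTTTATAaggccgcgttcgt
Vgll3, chr16:65815059-65815188, plus strand: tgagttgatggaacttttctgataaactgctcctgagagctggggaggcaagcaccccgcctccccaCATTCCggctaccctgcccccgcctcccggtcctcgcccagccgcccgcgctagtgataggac
In Srxn1 the AP-1 letters begin 102 and 45 bases before the start. In Ccn1 the TEAD letters lie 103 bases, the TGACNNNGC letters 62 bases and the TATA box 25 bases before it. In Anxa2 the AP-1 letters lie 95 bases before the start. In Tex19.1 they begin at 117 and 101 bases, the second inside a TGACNNNGC match, with a TATA box at 19 bases. In Vgll3 the TEAD letters lie 63 bases before it.

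Over all windows, the AP-1 letters were in 6.32% of member windows and in 3.40% of the 11594 windows of kept genes. The TEAD letters were in 19 of the 95 member windows and in 11.9% of all, the TATA box in 15.8% and 6.65%, the EGR letters (GCGGGGGCG) in 8.42% and 5.57%, and TGACNNNGC, a motif added after the members had been seen, in 21.1% and 14.2%. The ETS letters (CCGGAAGT) were in 2.11% of member windows and 8.39% of all, and the CRE (TGACGTCA) in 1.05% and 3.15%. The E-box (CACGTG) was in 10.5% and 10.4%, and the CArG box in 1.05% and 1.24%. The AP-1 and CRE letters can overlap TGACNNNGC. Each of these is a match of letters, not a binding site, and 6 member genes held the AP-1 match (Anxa2, Arap2, Itga9, Srxn1, Tex19.1 and Zyx). Median GC content was 60.7% in member windows and 61.3% in all. The median ratio of observed to expected CpG was 0.66 in member windows and 0.77 in all. The part of this difference in the motif shares was not tested.

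Transcription factors and their partners made up 13 members, with a median change of 1.68 at 2h, 1.72 at 4h and 1.35 at rev. Nab2 and Nab1 encode corepressors that bind the EGR transcription factors. Nab2 (ENSMUSG00000025402, chromosome 10, 127660918 to 127668568, minus strand) stood at 10.5 and 7.79 CPM in clone 4 and 15.3 and 14.9 CPM in clone 8 at 0h and at 84.3 and 84.8 CPM in clone 4 and 30.04 and 29 CPM in clone 8 at 2h. It reached 102 and 124 CPM in clone 4 and 31.6 and 31.2 CPM in clone 8 at 4h and was 79.1 and 63.8 CPM in clone 4 and 59 and 50.2 CPM in clone 8 at rev. The 0h libraries lay below every other library, and in clone 8 both rev libraries were above both 4h libraries. Group means were 12.1 ± 3.62 CPM at 0h and 63 ± 12.1 CPM at rev (SD, n = 4), a 5.2-fold ratio. Nab2 shares 42.2% of its exon length with other annotated genes, including opposite-strand ones, so its counts are uncertain. Nab1 was at 12.7 and 7.79 CPM in clone 4 and 11.6 and 9.0 CPM in clone 8 at 0h, at 105 and 99.9 CPM in clone 4 and 15.8 and 16 CPM in clone 8 at 4h and at 44.2 and 42.3 CPM in clone 4 and 27.9 and 25.8 CPM in clone 8 at rev. Its level at rev was under that at 4h in clone 4 and over it in clone 8.

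Egr1, an immediate-early gene whose product NAB proteins bind, is no member. It was at 5.72 ± 3.48 CPM at 0h (SD, n = 4), 877.9 ± 490.2 CPM at 2h and 11.6 ± 4.3 CPM at rev. Its L at rev minus 4h was -4.27, and this difference was 0.060 for Nab2 and -0.25 for Nab1. The rule itself kept this difference above -0.7 in every member.

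Foxf1, a forkhead factor gene known from the mesoderm of gut and lung (ENSMUSG00000042812, chromosome 8, 121084386 to 121088144, plus strand), had 0 counts in all 4 libraries at 0h. It was at 4.35 and 5.11 CPM in clone 4 and 0.605 and 1.48 CPM in clone 8 at 2h, 18.3 and 21.2 CPM in clone 4 and 0.535 and 0 CPM in clone 8 at 4h and 9.08 and 4.5 CPM in clone 4 and 8.53 and 3.78 CPM in clone 8 at rev. Against a floor of 3 counts per library at 0h, its mean was at least 2.35-fold higher at 2h, 8.15-fold at 4h and 5.28-fold at rev. In clone 8 the 4h libraries were at 2 and 0 counts, and Foxf1 was detected there mainly at rev, at least 6.08-fold over the floor. Vgll3, whose product is a cofactor of TEAD factors, was at 1.1 and 0.82 CPM in clone 4 and 1.14 and 2.74 CPM in clone 8 at 0h. At 4h it was at 37.7 and 23.8 CPM in clone 4 and 3.74 and 3.2 CPM in clone 8, and at rev at 17.6 and 17.8 CPM in clone 4 and 17.1 and 10.6 CPM in clone 8. Vgll3 therefore was high in both clones at rev but in clone 4 alone at 4h.

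Of the AP-1 subunit genes and the small MAF factor gene Maff, L was highest at 2h for Fos, Jun, Maff and Fosl2. The change of L of Fosl2 was 2.39 at 2h and 2.32 at 4h, while its mean was 9.82 CPM at 2h and 15.2 CPM at 4h. Fos was at 47.2 and 65.7 CPM in clone 4 and 23.8 and 21.8 CPM in clone 8 at 2h, the highest change of all members (3.88), and at 3.51 and 3.75 CPM in clone 4 and 2.33 and 2.75 CPM in clone 8 at rev, against 3.3 and 0.41 CPM in clone 4 and 1.14 and 1.96 CPM in clone 8 at 0h. The Fos values at 0h and rev overlapped. Jun was at 3.85 and 2.87 CPM in clone 4 and 3.98 and 5.09 CPM in clone 8 at 0h, 46.2 and 65.4 CPM in clone 4 and 9.07 and 8.33 CPM in clone 8 at 2h and 17.3 and 14.5 CPM in clone 4 and 3.1 and 5.84 CPM in clone 8 at rev, so that in clone 8 the rev libraries lay around the 0h level. Fosl2 held 0 to 3 counts per library at 0h and was at 35.9 and 22.5 CPM in clone 4 and 1.07 and 1.2 CPM in clone 8 at 4h and 11.4 and 7.25 CPM in clone 4 and 1.55 and 5.15 CPM in clone 8 at rev. Maff was at 3.42 ± 1.07 CPM at 0h, 16.5 ± 11.9 CPM at 4h and 9.89 ± 6.49 CPM at rev (SD, n = 4). Twist1, a basic helix-loop-helix factor gene, was at 32.5 and 26.5 CPM in clone 4 and 2.41 and 2.8 CPM in clone 8 at 4h and at 7.91 and 7.0 CPM in clone 4 and 3.1 and 6.53 CPM in clone 8 at rev. The other members of this group were Hic1, Klf10, Tbx4 and Eomes, with changes at rev of 1.35, 0.85, 0.99 and 0.62.

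**Figure D3:**
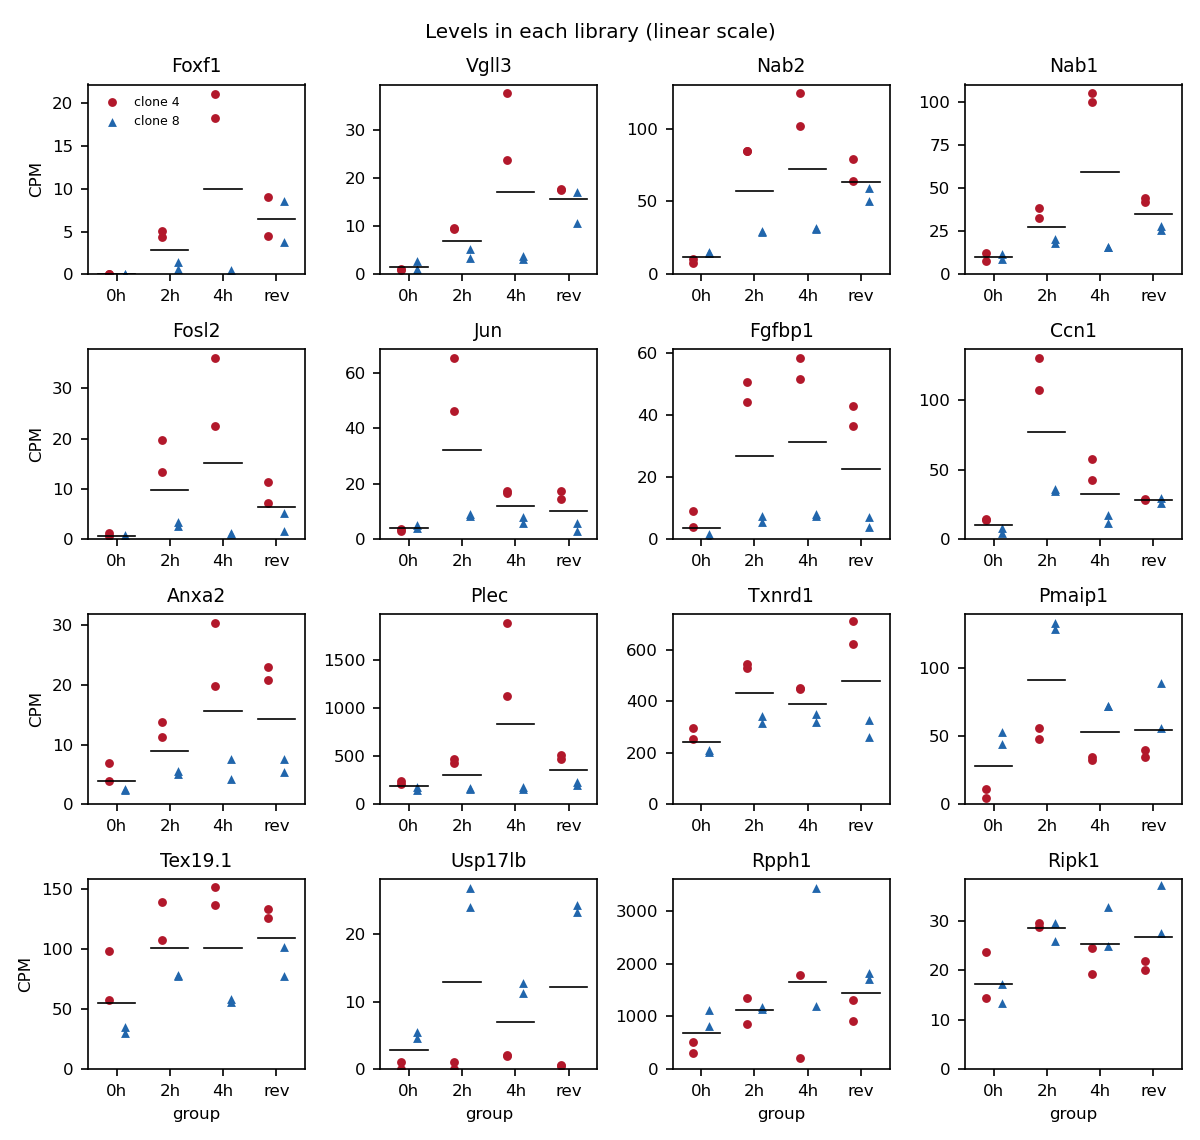
CPM on a linear scale in each library for 16 members, with clone 4 as red circles, clone 8 as blue triangles and the mean of the 4 libraries as a bar. Foxf1 is at 0 in all 0h libraries; Nab2 and Vgll3 in clone 8 are higher at rev than at 4h, Usp17lb is raised in clone 8 alone, and Rpph1 spreads widely at 4h.

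Secreted proteins made up 13 members, with medians of 0.86 at 2h, 1.18 at 4h and 1.45 at rev. Fgfbp1 encodes a carrier that releases FGFs from the matrix. It was at 3.85 and 9.02 CPM in clone 4 and 1.7 and 0 CPM in clone 8 at 0h, 51.5 and 58.2 CPM in clone 4 and 8.02 and 7.6 CPM in clone 8 at 4h and 43.1 and 36.5 CPM in clone 4 and 3.88 and 7.21 CPM in clone 8 at rev, so its level in clone 4 was several times that in clone 8 throughout induction and after it. Ccn1 encodes a matricellular protein known as a target of YAP and TEAD. It was at 13.8 and 14.4 CPM in clone 4 and 7.95 and 4.69 CPM in clone 8 at 0h, 107 and 130.4 CPM in clone 4 and 34.9 and 36.3 CPM in clone 8 at 2h and 58.1 and 43 CPM in clone 4 and 17.1 and 12 CPM in clone 8 at 4h. At rev the clones met, at 28.4 and 29 CPM in clone 4 and 29.5 and 25.8 CPM in clone 8. In clone 8 the rev libraries lay between those of 4h and 2h, and in clone 4 they were below both.

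Plat encodes tissue plasminogen activator, and was at 0.551 and 1.23 CPM in clone 4 and 2.27 and 0.391 CPM in clone 8 at 0h and 9.08 and 10.01 CPM in clone 4 and 4.65 and 5.84 CPM in clone 8 at rev, with all rev libraries above all others of their clone. Il34 encodes a ligand of the CSF1 receptor. It was at 4.4 and 2.46 CPM in clone 4 and 7.95 and 10.2 CPM in clone 8 at 0h, at 7.95 and 5.29 CPM in clone 4 and 12.3 and 14 CPM in clone 8 at 4h and at 14.1 and 16.3 CPM in clone 4 and 19.4 and 26.5 CPM in clone 8 at rev, and is 1 of 4 members whose rev and 4h libraries did not overlap. Thbs1, the gene of the matrix protein thrombospondin, had at most 1 count per library at 0h, and was at 7.61 and 7.25 CPM in clone 4 and 9.31 and 1.03 CPM in clone 8 at rev. Nptx1 (neuronal pentraxin) was at 36.3 and 37.7 CPM in clone 4 and 8.83 and 12 CPM in clone 8 at 4h and 17.6 and 14.3 CPM in clone 4 and 40.3 and 31.9 CPM in clone 8 at rev, opposite in order between the clones. Pdgfa, a growth factor gene, was at 62.8 and 67.7 CPM in clone 4 and 82.9 and 83.7 CPM in clone 8 at 0h and 132 and 125 CPM in clone 4 and 102 and 109 CPM in clone 8 at rev. The group also held Bmp8a, Tinagl1, Ntn1, Edn1, Clu and Lgals4, with changes at rev from 0.64 (Lgals4) to 1.45 (Bmp8a).

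Proteins of the membrane, of adhesion and of the cytoskeleton made up 19 members, with medians of 0.82 at 2h, 0.91 at 4h and 1.02 at rev, and 10 of them were highest at rev. Anxa2 encodes a membrane-binding annexin. It was at 3.85 and 6.97 CPM in clone 4 and 2.56 and 2.35 CPM in clone 8 at 0h, 30.4 and 19.8 CPM in clone 4 and 4.28 and 7.6 CPM in clone 8 at 4h and 20.8 and 23 CPM in clone 4 and 5.43 and 7.56 CPM in clone 8 at rev, and within each clone the 4h and rev values overlapped. S100a6, a calcium-binding protein gene, was at 42.9 and 36.4 CPM in clone 4 and 5.88 and 3.2 CPM in clone 8 at 4h and 8.49 and 15.3 CPM in clone 4 and 5.43 and 7.21 CPM in clone 8 at rev, against 2.75 and 5.74 CPM in clone 4 and 3.69 and 2.35 CPM in clone 8 at 0h. Plec encodes plectin, which links intermediate filaments to other structures. It was at 239.5 and 206 CPM in clone 4 and 179.7 and 145 CPM in clone 8 at 0h, 1886 and 1126 CPM in clone 4 and 182 and 155 CPM in clone 8 at 4h and 474 and 516 CPM in clone 4 and 199 and 227 CPM in clone 8 at rev. The Plec level at 4h was thus raised in clone 4 alone, and 4h library 1 of clone 4 held the most. Ahnak, a large membrane-associated scaffold gene, was at 182 and 223 CPM in clone 4 and 417 and 343 CPM in clone 8 at 0h and 696 and 859 CPM in clone 4 and 612 and 623 CPM in clone 8 at rev, with no overlap. Zyx, which encodes the focal adhesion protein zyxin, was at 21.7 and 18.5 CPM in clone 4 and 8.53 and 8.93 CPM in clone 8 at rev, and in clone 8 these overlapped 8.8 and 12.1 CPM at 0h. Fam83h and Nin had rev changes of 1.33 and 1.17 with all rev libraries above all 0h libraries.

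The antioxidant enzymes Gclc, Txnrd1, Srxn1 and Hmox1, known as targets of NRF2, were members. Txnrd1 encodes thioredoxin reductase and had the highest level per kb of exon of the 4 after Hmox1, at 68 CPM per kb at rev against 92.2 for Hmox1. Txnrd1 was at 255 and 295 CPM in clone 4 and 202 and 212 CPM in clone 8 at 0h, 451 and 448 CPM in clone 4 and 351 and 319 CPM in clone 8 at 4h and 625 and 714 CPM in clone 4 and 261 and 326 CPM in clone 8 at rev. Gclc, the catalytic subunit of glutamate-cysteine ligase, was at 90.3 and 129 CPM in clone 4 and 62.2 and 52.8 CPM in clone 8 at 0h and 200.3 and 216 CPM in clone 4 and 119 and 116 CPM in clone 8 at rev. Srxn1 (sulfiredoxin), whose upstream sequence with AP-1 letters is shown above, was at 18.7 and 20.1 CPM in clone 4 and 22.1 and 17.6 CPM in clone 8 at 0h and 44.2 and 49.8 CPM in clone 4 and 24.8 and 31.6 CPM in clone 8 at rev. Hmox1 (heme oxygenase) was at 307 and 327 CPM in clone 4 and 98.4 and 95.2 CPM in clone 8 at 4h and 205 and 189 CPM in clone 4 and 136 and 116 CPM in clone 8 at rev. In each of these 4 genes both rev libraries were above both 0h libraries of the same clone. Of a wider list of 19 antioxidant genes written after the members were known, 18 were kept and their median change at rev was 0.026, with 10 above 0h and 8 below, the 4 members included.

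Germline and cleavage-stage genes made up 9 members. Tex19.1, a germline gene, was at 57.8 and 98.4 CPM in clone 4 and 30.4 and 34.8 CPM in clone 8 at 0h and 133 and 126 CPM in clone 4 and 77.6 and 101 CPM in clone 8 at rev. Dazl, which encodes a germ cell RNA-binding protein, was at 18.2 and 20.1 CPM in clone 4 and 34.4 and 36 CPM in clone 8 at 0h and 49.2 and 48.5 CPM in clone 4 and 68.3 and 60.8 CPM in clone 8 at rev, and Sycp1, a gene of the meiotic synaptonemal complex, at 13.2 and 11.5 CPM in clone 4 and 12.8 and 12.1 CPM in clone 8 and 19.6 and 23.3 CPM in clone 4 and 24.8 and 22.3 CPM in clone 8. In both all rev libraries were above all 0h libraries. Taf4b, Tex15 and Dppa2 had rev changes of 0.62, 0.76 and 0.61. Usp17lb, Trim43a and Zscan4e belong to families active in early cleavage embryos. Usp17lb was at 1.1 and 0 CPM in clone 4 and 4.54 and 5.48 CPM in clone 8 at 0h, 1.0 and 0 CPM in clone 4 and 26.8 and 24.1 CPM in clone 8 at 2h, 2.07 and 1.98 CPM in clone 4 and 11.2 and 12.8 CPM in clone 8 at 4h and 0.586 and 0.50 CPM in clone 4 and 23.3 and 24.4 CPM in clone 8 at rev. Its clone 4 libraries stayed at or under 2.07 CPM, and in clone 8 it was lower at 4h than at 2h or rev. Trim43a was at 1.0 and 0.34 CPM in clone 4 and 19 and 18.9 CPM in clone 8 at 2h and 2.64 and 2.0 CPM in clone 4 and 9.31 and 16.5 CPM in clone 8 at rev, and Zscan4e at 1.0 and 0 CPM in clone 4 and 13.7 and 13.9 CPM in clone 8 and 0.879 and 0.50 CPM in clone 4 and 12.4 and 7.9 CPM in clone 8. The predicted genes Gm5039 and Gm4971 showed the same order, with 1.17 and 1.5 CPM in clone 4 and 20.2 and 32.3 CPM in clone 8 and 1.17 and 1.25 CPM in clone 4 and 15.5 and 14.1 CPM in clone 8 at rev. Usp17lb, Trim43a and Zscan4e have near-identical relatives, so the authors' counting could split their reads, and their values are uncertain. In a list of germline and cleavage-stage genes written after the members were known, 21 of 31 were kept, 17 of the 21 were above 0h at rev, and the median was 0.61. These include the 9 members.

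Small structured RNAs made up 4 members: Rpph1, Rprl2 and Rprl3, which are annotated as the RNA of RNase P or copies like it, and Gm25732, annotated as a miRNA gene. Rpph1 had the highest level per kb of all members, 4529 CPM per kb at rev and 2162 at 0h. It was at 516 and 307 CPM in clone 4 and 819 and 1117 CPM in clone 8 at 0h, 205 and 1787 CPM in clone 4 and 1196 and 3442 CPM in clone 8 at 4h and 1313 and 922 CPM in clone 4 and 1829 and 1716 CPM in clone 8 at rev. Rprl3 moved with it, from 10.02 and 120.4 CPM in clone 4 and 76 and 201 CPM in clone 8 at 4h to 113 and 83.6 CPM in clone 4 and 129 and 149 CPM in clone 8 at rev. The 4h libraries of both were the most and the least abundant of all 16, 4h library 2 of clone 8 at the top and 4h library 1 of clone 4 at the bottom. Gm25732 was at 47.2 and 13.8 CPM in clone 4 and 237 and 9.62 CPM in clone 8 at rev, the highest value being that of the rev library with the fewest kept counts. Rpph1 shares 73% of its length with another annotated gene. Whether size selection or rRNA depletion moved these short RNAs was not tested.

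Signalling and cell death proteins made up 13 members, with medians of 0.85 at 2h, 1.03 at 4h and 0.90 at rev. Pmaip1 encodes NOXA, a BH3-only inducer of apoptosis that p53 can activate. It was at 11 and 4.51 CPM in clone 4 and 44 and 52.8 CPM in clone 8 at 0h, 47.8 and 55.8 CPM in clone 4 and 129 and 133 CPM in clone 8 at 2h, 32.5 and 35.1 CPM in clone 4 and 72.5 and 72.4 CPM in clone 8 at 4h and 34.9 and 40.03 CPM in clone 4 and 55.9 and 89 CPM in clone 8 at rev. Ripk1, a kinase of TNF receptor signalling, was at 14.3 and 23.8 CPM in clone 4 and 13.3 and 17.2 CPM in clone 8 at 0h and 22 and 20.01 CPM in clone 4 and 37.2 and 27.5 CPM in clone 8 at rev, and in clone 4 the values of these groups overlapped. Tnfrsf12a, the TWEAK receptor gene, was at 28.3 and 27.1 CPM in clone 4 and 8.56 and 4.8 CPM in clone 8 at 4h and 10.8 and 10.01 CPM in clone 4 and 13.2 and 11.3 CPM in clone 8 at rev, and Ptgs2, which encodes cyclooxygenase 2, at 25.9 and 21.8 CPM in clone 4 and 3.48 and 2.4 CPM in clone 8 and 8.2 and 12.5 CPM in clone 4 and 2.33 and 3.44 CPM in clone 8. Plk3, a stress-related kinase gene, and Porcn, whose product modifies Wnt proteins for secretion, had changes at rev of 0.86 and 1.04. Mapk4, an atypical MAP kinase gene, was 0.90 higher at rev, and Cyth4, Matk, Rhbdf1, Arap2 and Ppp3ca were 0.75 (Ppp3ca) to 1.73 (Cyth4) higher.

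The remaining 43 members held most of the 14 members with predicted names. Cacna1h, a T-type calcium channel gene, was at 20.4 and 18.5 CPM in clone 4 and 0.535 and 1.6 CPM in clone 8 at 4h and 14.9 and 10.5 CPM in clone 4 and 8.53 and 6.87 CPM in clone 8 at rev, against 0.551 and 0.41 CPM in clone 4 and 1.42 and 3.52 CPM in clone 8 at 0h. Islr2, a membrane protein gene, was at 5.88 and 2.65 CPM in clone 4 and 10.2 and 9.2 CPM in clone 8 at 4h and 17.6 and 27.8 CPM in clone 4 and 9.31 and 15.1 CPM in clone 8 at rev. Fam189a2 was at 16.7 and 12.3 CPM in clone 4 and 14.1 and 13.9 CPM in clone 8 at 2h, 3.46 and 1.98 CPM in clone 4 and 15.8 and 16 CPM in clone 8 at 4h and 15.2 and 19.3 CPM in clone 4 and 9.31 and 13.7 CPM in clone 8 at rev. In clone 4 both were low at 4h and high at rev, while in clone 8 the 4h and rev libraries of Islr2 overlapped and those of Fam189a2 were higher at 4h. Peg10, an imprinted gene of retrotransposon origin, was at 250.0 and 278 CPM in clone 4 and 48.6 and 54.4 CPM in clone 8 at 0h and 842 and 824 CPM in clone 4 and 127 and 114 CPM in clone 8 at rev. Phlda2, another imprinted gene, was at 5.51 and 7.38 CPM in clone 4 and 5.11 and 4.3 CPM in clone 8 at 0h and 30.8 and 30.02 CPM in clone 4 and 6.21 and 7.21 CPM in clone 8 at rev, and in clone 8 these were close to each other. Midn and Taf1d, at 268 ± 35 CPM and 536 ± 39.9 CPM at rev (SD, n = 4), were the members of this group with the highest levels per kb after Peg10.

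**Figure D4:**
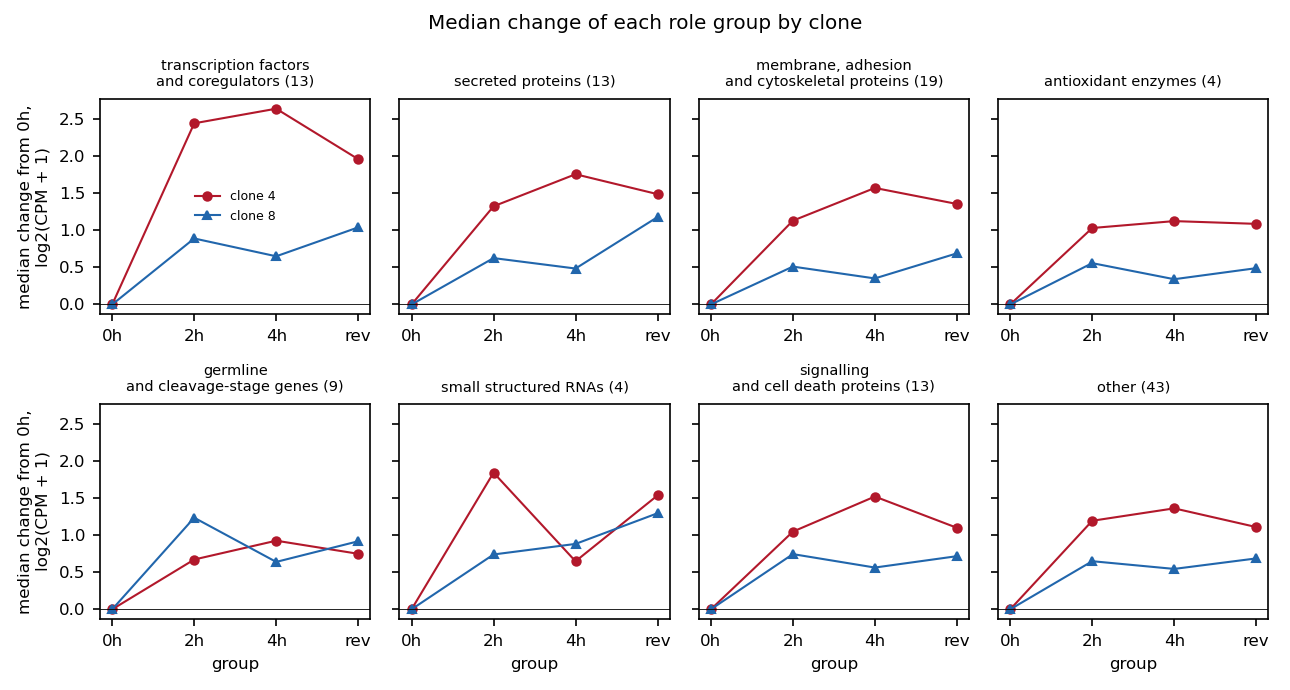
Median change of L from 0h, in log2(CPM + 1), for the members of each role group (number in brackets) at 2h, 4h and rev, in clone 4 (red circles) and clone 8 (blue triangles). Clone 4 medians lie above clone 8 medians in most groups and fall from 4h to rev, as for transcription factors (2.64 to 1.96), while clone 8 medians there go from 0.65 to 1.04; the germline and small RNA groups do not keep this order.

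The median change of the members was highest at 4h in clone 4 and at rev in clone 8, which is partly set by the choice of members. Median changes in clone 4 were 1.19 at 2h, 1.46 at 4h and 1.25 at rev, and in clone 8 they were 0.70, 0.54 and 0.81. The median of rev minus 4h was -0.14 in clone 4 and 0.33 in clone 8. The limit on the fall from 4h to rev was set on the average of the clones, so nothing is read from these medians. Within clone 4, 69 members met all thresholds, and within clone 8, 43 did. These include 17 that met them in each clone, and 23 met them only as an average of the clones, although L at rev was above 0h in clone 4 for 117 members and in clone 8 for 112. The thresholds applied to clone 4 libraries only would give 199 genes and to clone 8 libraries only 128.

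The difference between clones was tested for every gene as an interaction of group and clone in edgeR's quasi-likelihood test, with adjustment over all 12742 genes. The differences for 2h, 4h and rev against 0h share the 0h libraries and are given side by side. At 0h itself, 27 members differed in level (11.7% of all genes did), 20 of them higher in clone 8 and 7 lower, against 896 and 593 of all genes. Without 0h library 2 of clone 4 this count was 12, and the count over all genes fell from 1489 to 651. The difference of clone 8 minus clone 4, on the log2 scale here and below, was -2.37 (SE 0.16, edgeR adjusted p 2.96e-12) for Peg10, -2.73 (SE 0.60, edgeR adjusted p 0.00175) for Fgfbp1 and 2.71 (SE 0.26, edgeR adjusted p 7.12e-09) for Pmaip1. The Peg10 and Pmaip1 libraries of the clones did not overlap at 0h.

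The change at 2h against 0h differed between clones for 26 members (7.94% of all genes), of which 24 were lower in clone 8 and 2 higher, against 639 and 373 of all genes. The exceptions, Dppa2 and Trim43a, are germline and cleavage-stage genes. This count was 15 without 0h library 2 of clone 4, 15 without 0h library 1 of clone 8 and 16 with DESeq2. The count over all genes fell in these runs as well, from 1012 to 424, 478 and 525. At 4h against 0h it was 40 members (5.72% of all genes), 39 of them lower in clone 8 and 1, the glycosyltransferase gene B3gnt3, higher, against 470 and 259 of all genes. Without 0h library 1 of clone 8 the count of members was 25, and that of all genes fell from 729 to 431. Cacna1h, Twist1, Kctd12 and Vgll3 had differences from -4.12 (Vgll3) to -6.52 (Cacna1h), but no 0h library of clone 4 held over 4 counts of any of them. Among called members with over 3 counts in every 0h library, the largest differences were those of Nptx1, -4.18 (SE 0.47, edgeR adjusted p 2.85e-07), Ptgs2, -3.47 (SE 0.72, edgeR adjusted p 0.0018), and Rnf128, -3.47 (SE 0.72, edgeR adjusted p 0.00185). They were followed by those of Clu, -2.94 (SE 0.46, edgeR adjusted p 5.44e-05), and Specc1, -2.83 (SE 0.49, edgeR adjusted p 0.000197). Rnf128, an E3 ubiquitin ligase gene, lost the call without 0h library 1 of clone 8. Plec differed by -2.74 (SE 0.22, edgeR adjusted p 1.79e-10), Nab1 by -2.80 (SE 0.33, edgeR adjusted p 6.81e-07) and Nab2 by -2.60 (SE 0.30, edgeR adjusted p 5.36e-07).

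At rev against 0h the change differed for 18 members (5.25% of all genes), 17 lower in clone 8 and 1, Tex19.1, higher, against 395 and 274 of all genes. This count was sensitive to single libraries: it was 7 without 0h library 2 of clone 4, 8 without 0h library 1 of clone 8, 11 without rev library 2 of clone 4 and 6 without rev library 2 of clone 8. The counts over all genes in these runs are not given here, so this is not read as a trait of the members. Jun had the largest, -2.12 (SE 0.59, edgeR adjusted p 0.0284), with a change of L of 1.96 in clone 4 and -0.055 in clone 8. Zyx differed by -1.80 (SE 0.43, edgeR adjusted p 0.00916) and Specc1 by -1.80 (SE 0.49, edgeR adjusted p 0.0245). Pmaip1 differed by -1.72 (SE 0.33, edgeR adjusted p 0.00133), with a change of 2.24 in clone 4 from a lower start and 0.54 in clone 8. Phlda2, Sccpdh and Nab2 differed by -1.71, -1.67 and -1.2 (edgeR adjusted p 0.0233, 0.00969 and 0.016). Txnrd1, Plec and Pdgfa differed by -0.78, -0.78 and -0.65 (edgeR adjusted p 0.00173, 0.0301 and 0.0168). Leaving out 1 library or using DESeq2 ended the call for 9 of these 10 genes in at least 1 case. Only Txnrd1 kept it in every alternative run. The called members outside the naming rule given below were not followed in this way.

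At rev against 4h the clones differed for 41 members (13.2% of all genes), 37 of them with the more positive change in clone 8 and 4 with the less positive, against 803 and 878 of all genes. The limit of 0.7 on the fall from 4h to rev, set on the average of the clones, admits a gene with a large fall in 1 clone only where the other offsets it, so this count and its direction are partly set by the choice and nothing is read from them. Nptx1 differed by 2.99 (SE 0.34) and Rnf128 by 2.79 (SE 0.50). In these genes clone 4 was lower at rev than at 4h and clone 8 higher. Fam189a2 went the other way, -2.93 (SE 0.44), as did Islr2, Mapk4 and Txnrd1. Leaving out rev library 2 of clone 8 ended the call for Rnf128. The 7 transcription factor and coregulator genes called were Fosl2, Foxf1, Hic1, Nab1, Nab2, Twist1 and Vgll3. All were more positive in clone 8, as were 37 of all 41 called members.

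**Figure D5:**
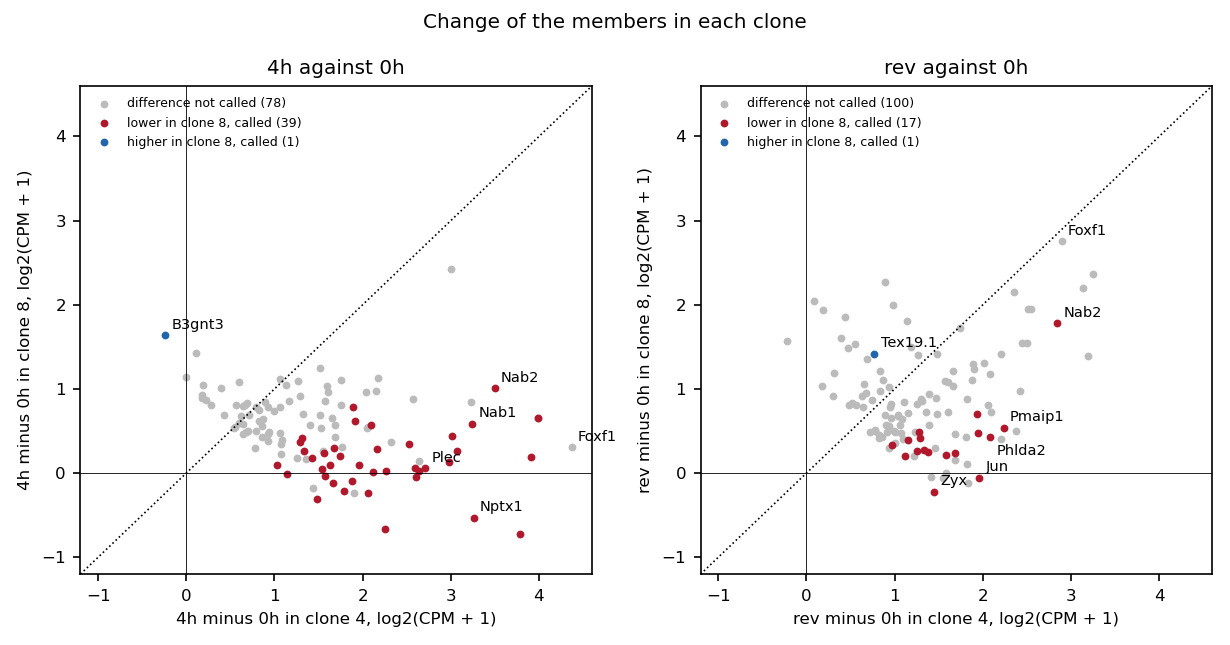
Change of each member in clone 4 (horizontal) and clone 8 (vertical), in log2(CPM + 1), at 4h (left) and rev (right) against 0h; the dotted line marks equal change, and colours mark differences called by edgeR at an adjusted p under 0.05. At 4h 39 members were called lower in clone 8 and 1 higher; at rev 17 were called lower and 1 higher.

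The lists of related pathways, written with earlier results of these data known, place the members among their neighbours. Over all genes tested, 5.51% were called higher and 4.94% lower at rev against 0h. At rev against 4h these shares were 4.5% and 5.1%. Of 31 tested ERK immediate-early and feedback genes, 5 were called higher at rev than at 0h (Egr3, Fosl2, Dusp5, Etv5 and Nab2) and 0 lower, while 19 were called lower at rev than at 4h and 0 higher. Spry4, a feedback inhibitor gene, stood at 5.51 ± 2.81 CPM at 0h, 368.5 ± 260.1 CPM at 4h and 3.93 ± 1.45 CPM at rev (SD, n = 4). Dusp6, an ERK phosphatase gene, was at 127.7 ± 83.7 CPM at 4h and 4.14 ± 1.46 CPM at rev (SD, n = 4), against 7.95 ± 3.24 CPM at 0h. Both means at rev were thus under those at 0h. Of 34 listed genes 4 were members, Fos, Fosl2, Jun and Nab2. The median change at rev of the 31 kept list genes was 0.46, against 0.98 for the members and -0.066 for all kept genes.

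Of 22 tested YAP and SRF target genes, 6 were called higher at rev than at 0h (Ccn1, Ccn2, Amotl2, Ajuba, Tagln2 and Actg1) and 1 lower (Axl). Of 31 membrane, adhesion and epithelial genes 4 were higher and 0 lower, and of 22 growth factor, receptor and protease genes 5 and 0. Of 15 AP-1, MAF and CEBP factor genes 2 were higher (Fosl2 and Maff) and 0 lower, and of 14 G1 regulators 3 were higher and 1 lower. Of 14 p53 target genes, 8 were called higher at rev than at 0h and 0 lower, and 7 higher than at 4h. None of these 14 was a member, and Pmaip1 was not on the list. Cdkn1a, which encodes the cell cycle inhibitor p21, was at 82.0 ± 8.45 CPM at 0h, 131.1 ± 42.6 CPM at 2h, 53.4 ± 9.86 CPM at 4h and 142.6 ± 23.4 CPM at rev (SD, n = 4), and so missed the 4h threshold. Of 10 naive pluripotency genes 0 were called at rev against 0h, and 6 were higher and 2 lower at rev than at 4h. Of 10 formative and primed genes 1 was higher at rev than at 0h (Eomes) and 2 were lower (Otx2 and Sall2).

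The order of Cdkn1a, high at 2h and rev and low at 0h and 4h, is that of a split among whole groups. In a principal component analysis over 500 variable genes, the first component (51.9% of variance) separated the clones. On it every clone 4 library had a score above 0, and every clone 8 library a score below 0. The third component (8.44% of variance) separated the groups. On this one every library of 0h and 4h had a score above 0, and every library of 2h and rev a score below 0. The labels give no batch, and each side holds whole groups, so what made the split and the groups cannot be told apart. Both 2h and rev were above 4h for 41.5% of the members and for 37.4% of all kept genes.

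In annotation, 103 of the 118 members (87.3%) were protein-coding genes, against 93.5% of kept genes. Their median exon length was 3816 bp, against 4476 bp. Exon sequence was shared with another gene in 33 members (28.0%, against 36.1% of kept genes), with an opposite-strand partner in 27, and whether reads were counted by strand is not given in the sources used here.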

How the data were processed

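RNA depleted of rRNA was sequenced from 16 libraries. The authors deposited 1 table of gene counts as whole numbers; per the submitters' processing notes, the tools included bcl2fastq 2.19.1 and STAR 2.5.3a with the build mm10, and the counter, the annotation and the strand setting are not given in the sources used here. The members and lists were chosen with earlier results of these data known. CPM and L were computed from the counts as described at the opening of the report, and a difference of L understates the change of low genes. Counts were tested with edgeR 4.0.16 in R 4.3.3 (TMM scaling, filterByExpr by group with a minimum count of 10 and a minimum total of 15, glmQLFit, Benjamini-Hochberg adjustment over the 12742 genes tested, adjusted p under 0.05), with group and clone as terms, or with the 8 means of group and clone for differences between clones (clone 8 minus clone 4). The fit for differences between clones was tested on simulated data, for the change at rev against 0h only. DESeq2 1.42.0, other scalings, filters, thresholds and leaving out each library were alternatives.

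Gene positions are from GENCODE M21 on GRCm38, which holds 52489 of the 52636 gene IDs. Genes were named by a rule: the 20 protein-coding members with the largest change at rev and at least 5 CPM there, the 6 with the highest level per kb, those on pathway lists, the 6 with the largest called clone differences at rev and at 0h, and the neighbours of each threshold. Other members were named for their role, after their values had been seen. The values of 1 member are not reported here. The library totals of 4.31 to 10.4 M counts limit the precision of low genes.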

Additional observations from a re-analysis of the deposited data

Results flagged for a closer look

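Of 180 groups of 4 libraries examined among named members, 7 held a library far from the others, by Dixon's criterion at the 95% level, which chance meets in about 1 of 20 groups. Vgll3 stood at 2.74 CPM in 0h library 2 of clone 8, against 0.820 to 1.14 CPM in the other 0h libraries, and at 10.6 CPM in rev library 2 of clone 8, against 17.1 to 17.8 CPM. Plat was low in 2h library 1 of clone 8, at 1.81 CPM against 2.34 to 2.41 CPM. Cyth4 was high in 2h library 1 of clone 4, at 5.35 CPM against 2.41 to 2.72 CPM, and so was Eomes, at 18.1 CPM against 10.5 to 11.3 CPM. Gm43682 stood at 4.10 CPM in 0h library 2 of clone 4, against 1.10 to 1.56 CPM. In CPM the widest gap was that of Gm25732, at 237 CPM in rev library 1 of clone 8 against 9.62 to 47.2 CPM. As a share of the range its gap was 0.84, while the largest share was that of Vgll3 at rev, 0.90.

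The clones differed in their changes, by the interaction test of edgeR, in 26 members at 2h, 40 at 4h, 18 at rev against 0h and 41 at rev against 4h; these counts are partly set by the choice of members. At rev against 0h, the difference of clone 8 minus clone 4, on the log2 scale, is given for the called members named by rule. It was -2.12 for Jun, -1.80 for Specc1, -1.80 for Zyx, -1.72 for Pmaip1, -1.71 for Phlda2, -1.67 for Sccpdh, -1.2 for Nab2, -0.78 for Plec, -0.78 for Txnrd1 and -0.65 for Pdgfa. The edgeR adjusted p ranged from 0.00133 (Pmaip1) to 0.0301 (Plec). Called members outside that rule included Klf10 and Ahnak, with lower adjusted p than Pmaip1. For the other comparisons, the largest called differences are given among members named by rule with over 3 counts in every 0h library. At 4h against 0h they were -4.18 for Nptx1, -3.47 for Rnf128 and -2.83 for Specc1. Ptgs2 and Clu, outside that rule, had larger differences there than Specc1. At rev against 4h they were 2.99 for Nptx1, -2.93 for Fam189a2 and 2.79 for Rnf128.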

How the results depend on the processing

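The number of members was 61 with the features over 1% in the library totals (60 shared with the 118), 78 with thresholds stricter by 0.1, 191 with thresholds looser by 0.1, and 199 from clone 4 libraries alone (69 shared). TMM scaling over the kept genes gave 158, including all 118. In clone 8 alone, a subset of the libraries, the change at rev was negative for 6 members: Jun (-0.055), Zyx (-0.22), Kctd12 (-0.058), Ppl (-0.11), Steap2 (-0.046) and Mbnl3 (-0.0026). Leaving out 1 library gave 103 to 174 members. The cause of these shifts was not tested.

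Without a clone term, 32 members were called at 2h, 28 at 4h, 22 at rev against 0h and 1 at rev against 4h, where leaving out the filter on low counts gave 26. Over all 12742 genes, 757 were called at 2h without a clone term, against 1209 higher and 953 lower with it. With the threshold on the adjusted p at 0.01, 14 clone differences were called at 2h and 8 at rev; DESeq2 gave 16 at 2h. Leaving out 1 library gave 12 to 29 members with a clone difference at 0h, 15 to 32 at 2h, 25 to 43 at 4h, 6 to 22 at rev against 0h and 30 to 41 at rev against 4h, and 56 to 89, 51 to 76, 45 to 85 and 3 to 13 members called in the 4 comparisons between groups. The counts of clone differences over all genes moved too, as at 0h from 1489 to 651 without 0h library 2 of clone 4. Among 71 clone differences of named members, 1355 of 1489 alternatives kept the call, 134 lost it and 0 changed direction.

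The replicate numbers did not pair the libraries: deviations of same-numbered libraries had a mean correlation of -0.013 (-0.16 to 0.12) after clone means were removed. With the replicate number as a block, clone differences numbered 23, 27, 36, 17 and 39 and members called 72, 64, 64 and 6. Low counts limit many members, since 53 of the 118 had under 500 counts in all.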

Other observations

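Among genes outside the members, p53 targets were, of the 9 pathway lists, the one with the most genes called higher at rev than at 0h, 8 of 14 tested: Cdkn1a, Mdm2, Ccng1, Phlda3, Gtse1, Plk2, Eda2r and Aen. The median change of the 14 kept genes was 0.47 at 2h, -0.043 at 4h and 0.38 at rev, so the list was near its 0h level at 4h. The 10 naive pluripotency genes had medians of 0.090 at 2h, -0.35 at 4h and 0.18 at rev. At rev against 4h Nanog, Tfcp2l1, Prdm14, Tbx3, Klf2 and Klf4 were called higher, and Klf5 and Nr0b1 lower. Neither list was tested against other genes.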
